A study of Papio hamadryas with 11 samples.

Results

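The UGT1A genes are a family of 9 UDP-glucuronosyltransferase genes, UGT1A1, UGT1A3, UGT1A4, UGT1A5, UGT1A6, UGT1A7, UGT1A8, UGT1A9 and UGT1A10, and they were described here in the fetal baboon liver. Their members were all probes that the platform annotation assigns to one of these symbols, which gave 11 of the 48803 probes on the array: 3 for UGT1A6 and 1 for each of the other genes. The family was chosen because the UGT1A7 and UGT1A10 probes read low in some livers from obese mothers, so the difference between the maternal conditions is described for these genes without a test. The choice was made for UGT1A7 and UGT1A10, and the other 7 genes came with them as members of the family.

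Total RNA came from the livers of 11 near-term fetuses of Papio hamadryas at 165 days, or 0.9 of gestation, each hybridised to its own human expression array. Of these fetuses, 6 (CON1 to CON6) had mothers labelled as controls and 5 (MO1 to MO5) had mothers labelled as obese, with no further treatment, genotype or diet in the labels. The females were CON1 to CON3 and MO1 to MO3, and the other 5 fetuses were male. Slide was inferred from the number that opens each array name. By it, slide 1 carried CON1 to CON4, and slide 2 carried CON5, CON6 and all 5 maternal obese arrays, so that slide 1 held controls only.

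UGT1A enzymes sit in the endoplasmic reticulum and transfer glucuronic acid from UDP-glucuronic acid to bilirubin, steroids, bile acids, drugs and dietary phenols, which makes these compounds soluble enough to leave through bile or urine. In humans the genes share one locus, in which each has its own first exon, encoding the part that binds the acceptor, joined to a common set of exons encoding the part that binds the sugar donor. Bilirubin conjugation is low in the human fetus and matures after birth, which underlies the jaundice of newborns. Because the transcripts share exons, and because the array is a human one, a probe may bind more than 1 UGT1A transcript or bind a baboon transcript weakly. Each probe was therefore kept apart and is named here by its symbol and probe identifier. Probes are related to each other only in how they vary over the arrays, and no level is read as more of 1 transcript than of another.

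Each array detected 10131 (MO4) to 13065 (CON4) of the 48803 probes at a detection p under 0.05, and median intensities were 62 to 65.6 on slide 1 and 69.7 to 80.3 on slide 2. The label of liver was borne out by its markers: 9 of 10 hepatocyte markers were measured and detected on all 11 arrays, with ALB, the albumin gene, between 14.40 and 14.83 on the normalized log2 scale. A listed gene counts as measured where a probe assigned to it alone was detected on 5 or more arrays. Of the 10 gut epithelium markers 9 had a probe assigned to them alone, and 0 were detected on 5 or more arrays. Of the 8 cholangiocyte markers 7 had such a probe and 2 were detected on 5 or more arrays, with KRT7, KRT19 and SOX9 not among them. On this human array a marker that is not detected may still be present. Normalized log2 values are given throughout for levels, after background correction and quantile normalization, and intensities are the deposited values on a linear scale.

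Of the 11 UGT1A probes, 4 were detected on at least 5 arrays: a pair for UGT1A6 (ILMN_1706390 and ILMN_1758907), 1 for UGT1A7 (ILMN_1764607) and 1 for UGT1A10 (ILMN_1740233). They stand for 3 of the 9 genes. The other 7 probes had detection p-values of 0.05 or more on every array, except that of UGT1A9 on CON3. A probe that is not detected here gives only an upper limit on the signal of that probe, and its transcript may still be present.

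**Figure D1:**
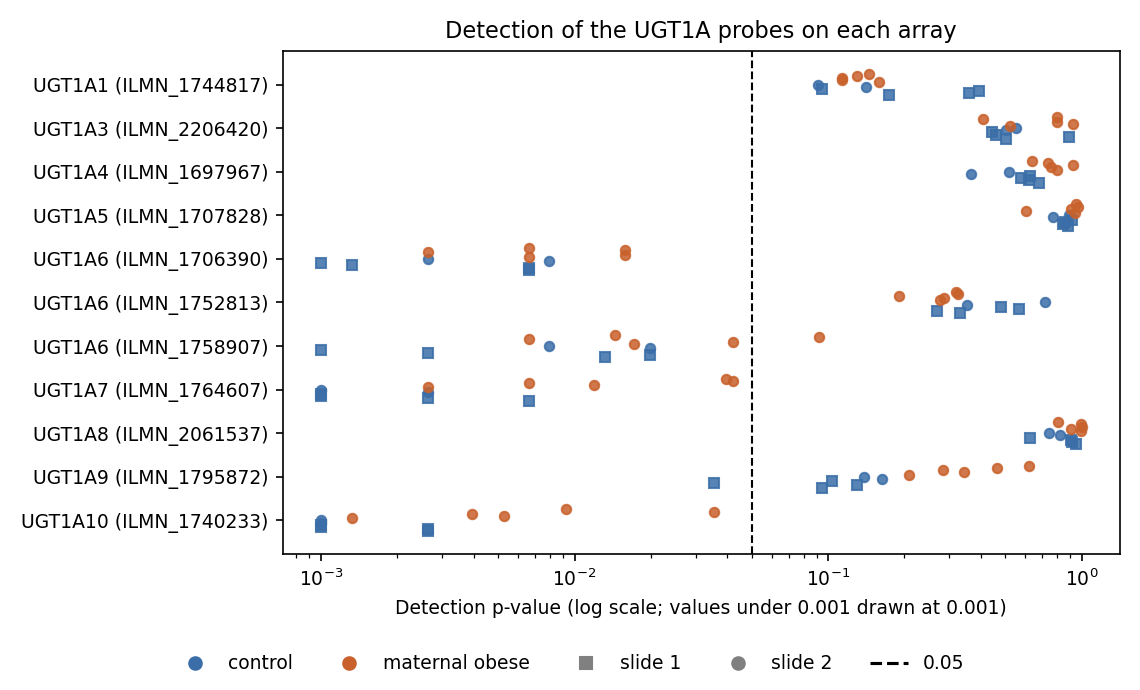
Detection p-value of each of the 11 UGT1A probes (rows) on each of the 11 arrays (points), on a log axis, coloured by maternal condition and shaped by slide. The dashed line marks 0.05. The 4 detected probes lie to its left, with 1 maternal obese array of UGT1A6 ILMN_1758907 to its right, and the other 7 probes lie to its right except for UGT1A9 on CON3.

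UGT1A1, the main bilirubin-conjugating enzyme, was not detected on any of the 11 arrays. Its detection p-values ran from 0.0909 on CON6 to 0.395 on CON3, and were 0.113 to 0.159 on the maternal obese arrays. The intensities of this probe were 60.6 to 101.9 in controls and 78.5 to 86.3 in maternal obese livers, where the dimmest detected probe of an array lay between 76.8 (CON2) and 115.8 (CON6). UGT1A1 was thus within the background signal, on CON2 and CON3 close to the median intensity of the array (62 and 63.2), and no difference between the groups could be measured with it.

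UGT1A3, which conjugates bile acids and estrogens, had detection p-values of 0.407 to 0.920. UGT1A4, which conjugates amines, had values of 0.366 to 0.926, and UGT1A5, for which little activity is known in humans, of 0.603 to 0.968. UGT1A8, an intestinal enzyme in humans, had values of 0.625 to 1.0. None of these 4 probes was detected on any of the 11 arrays. The third UGT1A6 probe, ILMN_1752813, which the annotation assigns to a different RefSeq transcript of the gene from the other pair, was not detected on any array either, with detection p-values of 0.191 to 0.718.

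UGT1A9, an enzyme for phenols found in human liver and kidney, was detected on CON3 alone, with a detection p of 0.0356. Its levels were 5.12 in CON1, 5.03 in CON2, 5.34 in CON3, 5.03 in CON4, 4.98 in CON5 and 5.06 in CON6. In maternal obese livers they were 4.93 in MO1, 4.84 in MO2, 4.87 in MO3, 4.80 in MO4 and 4.75 in MO5. All 6 controls thus read above all 5 maternal obese arrays, in signal that was not above background on 10 of the 11 arrays. Over all 48803 probes, 0.236% read lower in maternal obese livers without overlap between the groups. No fold is given for UGT1A9, because the control mean did not exceed the lowest detected signal of the maternal obese arrays.

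UGT1A6 conjugates small planar phenols and, in humans, serotonin. Its probe ILMN_1706390 was detected on all 11 arrays, with intensities of 115.5 to 281.9. The levels were 6.55 in CON1, 6.57 in CON2, 7.10 in CON3, 7.39 in CON4, 6.67 in CON5 and 7.47 in CON6, a mean of 6.96 ± 0.42 (SD, n = 6). In maternal obese livers they were 6.57 in MO1, 6.02 in MO2, 7.11 in MO3, 6.20 in MO4 and 6.77 in MO5, a mean of 6.53 ± 0.44 (SD, n = 5). The difference of -0.43, or 1.34-fold lower in maternal obese livers, was about as large as the SD within the groups. MO2 and MO4 read below every control, CON4 and CON6 above every maternal obese liver, and the other 7 arrays overlapped.

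The other detected UGT1A6 probe, ILMN_1758907, is assigned to the same RefSeq transcript. Its levels were 5.96 in CON1, 5.82 in CON2, 6.68 in CON3, 7.16 in CON4, 5.84 in CON5 and 6.78 in CON6, and 6.10 in MO1, 5.46 in MO2, 6.57 in MO3, 5.21 in MO4 and 6.28 in MO5. It was detected on 10 arrays and missed on MO4, where its detection p was 0.0922. The group means were 6.37 ± 0.57 (SD, n = 6) and 5.92 ± 0.57 (SD, n = 5), a difference of -0.45 or 1.37-fold. As with the first probe, MO2 and MO4 alone read below every control. The difference shrank to -0.28 without CON4 and to -0.27 without MO4, so single livers moved it by more than 1.5 times.

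UGT1A7 acts on dietary phenols and carcinogens and is known in humans mainly from the stomach and upper gut. Its probe ILMN_1764607 was detected on all 11 arrays. The control levels were 6.50 in CON1, 6.89 in CON2, 7.58 in CON3, 7.73 in CON4, 7.16 in CON5 and 8.38 in CON6, a mean of 7.37 ± 0.67 (SD, n = 6). The maternal obese levels were 7.35 in MO1, 6.26 in MO2, 6.55 in MO3, 5.59 in MO4 and 5.57 in MO5, a mean of 6.27 ± 0.74 (SD, n = 5). MO2, MO4 and MO5 read below every control, and MO1 read among the controls. Detection p-values on MO4 and MO5 were 0.0422 and 0.0395, close to the limit, and at most 0.0119 on the other 9 arrays.

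UGT1A10, an enzyme of the human gut that conjugates estrogens and phenols, spanned the widest range of the 4 probes over the arrays, at 12.3-fold from lowest to highest. Its probe ILMN_1740233 read 7.16 in CON1, 7.47 in CON2, 8.20 in CON3, 8.18 in CON4, 8.01 in CON5 and 9.35 in CON6, a mean of 8.06 ± 0.76 (SD, n = 6). In maternal obese livers it read 7.90 in MO1, 6.88 in MO2, 7.02 in MO3, 5.73 in MO4 and 6.52 in MO5, a mean of 6.81 ± 0.79 (SD, n = 5). Here 4 of the 5 maternal obese livers read below every control and MO1 did not. The corresponding intensities were 175.4 to 872.9 in controls and 107.4 to 265 in maternal obese livers. MO4, the low end of the 12.3-fold range, had a detection p of 0.0356, close to the limit. On the other arrays it was at most 0.00922.

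**Figure D2:**
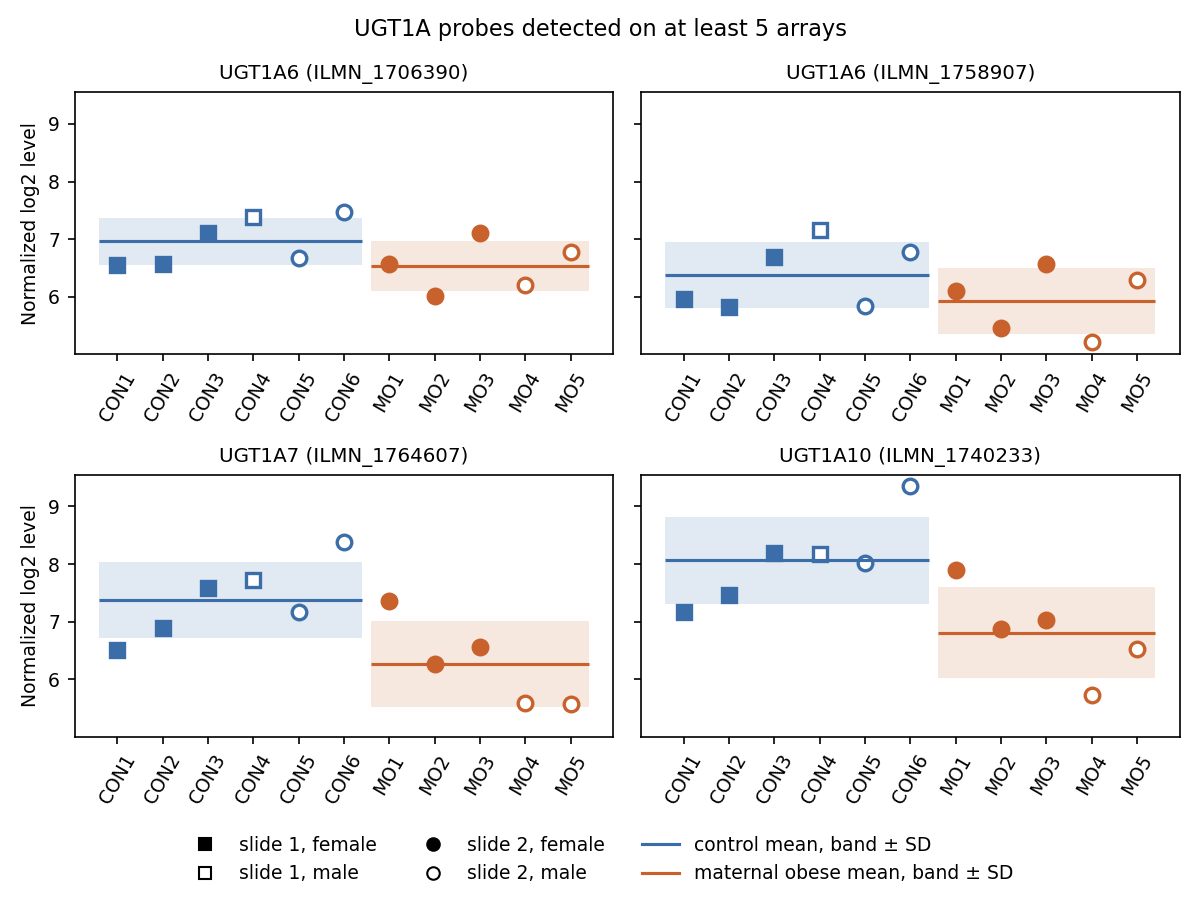
Normalized log2 level of the 4 detected UGT1A probes on each array (x axis), with the group mean as a line and ± 1 SD as a band. Squares are slide 1 and circles slide 2, filled for females and open for males. The UGT1A10 levels of MO2 to MO5 lie below the lowest control, while the UGT1A6 levels of the groups overlap.

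The means of UGT1A7 and UGT1A10 were thus lower in maternal obese livers by -1.11 and -1.25 on the log2 scale, or 2.15-fold and 2.39-fold. These are the values for which the family was chosen, and they carry no test. Of 11475 probes compared, 31 had a lower difference than UGT1A7 and 19 a lower one than UGT1A10, and the median over all was 0.04. These places follow from the choice of the family and lend it no support. With limma, 0 of the 11475 probes passed an adjusted p of 0.05 (0%, with 0.234 as the smallest adjusted p). An unadjusted p under 0.05 was reached by 12.8%. In whole liver, fewer cells that hold a transcript and less of it per cell cannot be told apart.

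Slide could be separated from condition only through CON5 and CON6. UGT1A10 read 8.01 and 9.35 in this pair, a mean of 8.68, and 7.16 to 8.20 in the 4 controls of slide 1, a mean of 7.75. UGT1A7 read 7.16 and 8.38 in the pair, and 6.50 to 7.73 on slide 1. The means of UGT1A10 and UGT1A7 were higher in the slide 2 controls by 0.93 and 0.60. That pair is male and 3 of the 4 slide 1 controls are female, so slide and sex are mixed here, and CON4, the male of slide 1, read 8.18 on UGT1A10. Within slide 2 the maternal obese minus control difference was -1.87 for UGT1A10 and -1.51 for UGT1A7, and -0.54 and -0.39 for UGT1A6 (ILMN_1706390 and ILMN_1758907), each with 3 females and 2 males set against that pair of male controls. Over all arrays, leaving out CON6 took UGT1A7 from -1.11 to -0.90.

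The 2 sexes are given apart. Among males, UGT1A10 read 8.01 to 9.35 in the 3 controls and 5.73 and 6.52 in the pair of maternal obese livers, which is a difference of -2.39. Among females it read 7.16 to 8.20 in 3 controls and 6.88 to 7.90 in 3 maternal obese livers, a difference of -0.34. For UGT1A7 the differences were -2.18 in males and -0.27 in females. For UGT1A6 the differences were -0.69 in males and -0.18 in females (ILMN_1706390), and -0.85 and -0.11 (ILMN_1758907). A limma fit of the interaction between sex and maternal obesity called 0 of 11475 probes (0%, with 0.355 as the smallest adjusted p), though 18 without CON4 and 1 without MO4 or without MO5, and an unadjusted p under 0.05 was reached by 7.36%. All 3 control females lay on slide 1 and all 3 maternal obese females on slide 2, whereas CON5, CON6 and both maternal obese males shared slide 2, so the contrast of the sexes is mixed with slide. The male pair MO4 and MO5 holds the lowest UGT1A7 and UGT1A10 readings that led to the choice of the family.

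**Figure D3:**
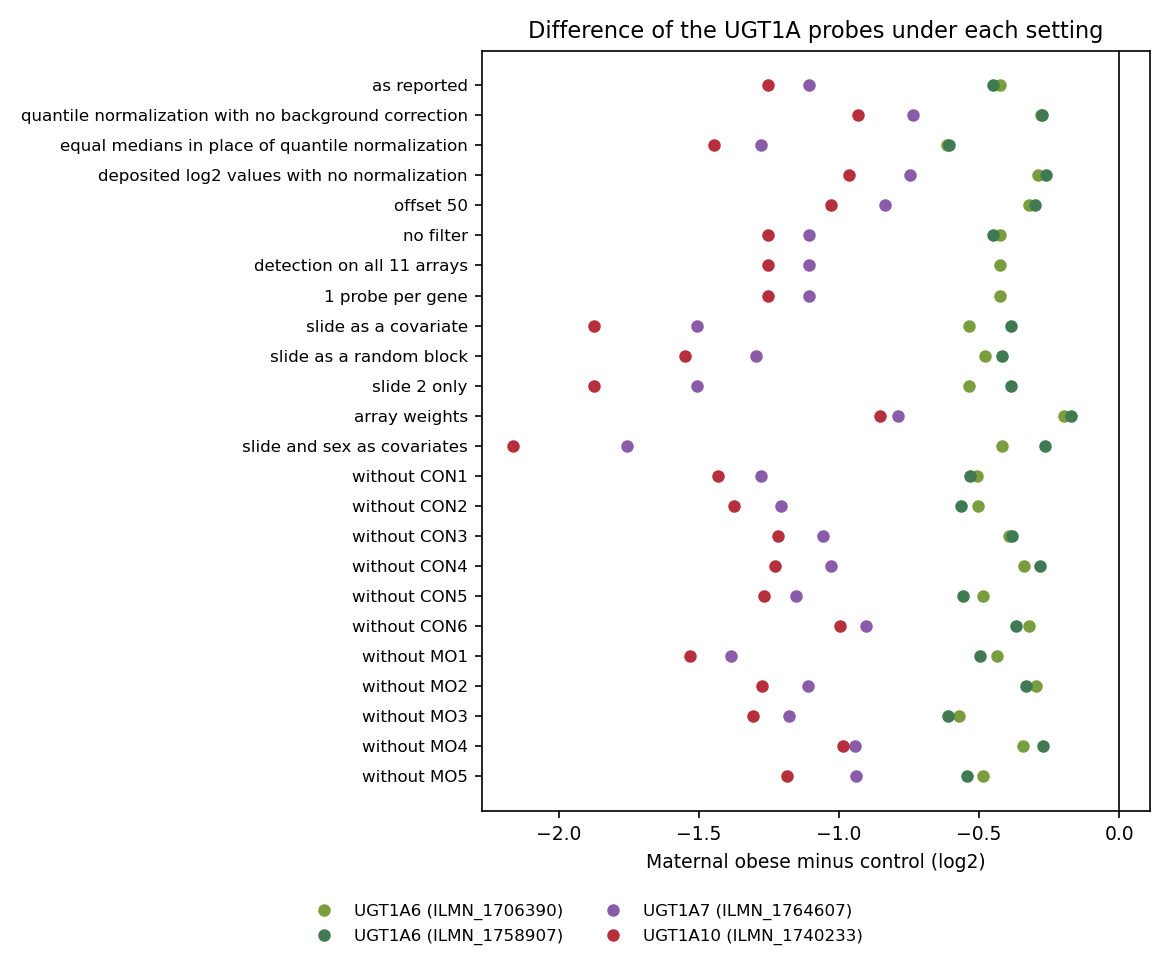
Maternal obese minus control difference (x axis, log2) of the 4 detected UGT1A probes, as reported and under each other setting or with 1 array left out (rows). All points lie below 0. UGT1A10 ranges from -2.16 with slide and sex as covariates to -0.86 with array weights.

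Other measures of these arrays are given beside the UGT1A readings. MO4, which read lowest on UGT1A10, also had the fewest detected probes, at 20.8% of the array, and the other arrays had 21.6% to 26.8%. CON6, which read highest, had 21.6%. All 8 Kupffer cell and macrophage markers were measured, and their summed level was highest on CON6, at 15600, and lowest among maternal obese arrays on MO4, at 8490, with ranges of 8190 to 15600 in controls and 8490 to 12300 in maternal obese livers. The 9 hepatocyte markers summed to 92400 to 110000 in controls and 90100 to 104000 in maternal obese livers, with 93100 on CON6 and 98200 on MO4. The 2 measured cholangiocyte markers, EPCAM and SOX4, summed to 275 to 1760 in controls and 372 to 1450 in maternal obese livers. The 5 measured stellate cell and fibroblast markers summed to 6450 to 18100 in controls and 7030 to 68400 in maternal obese livers, with 13100 on MO4 and 11000 on MO5. The 6 endothelial markers summed to 1670 to 2460 and 1600 to 2320, lowest on MO4, and the 3 erythroid markers to 345 to 4620 and 774 to 3030. On MO5, which read lowest on UGT1A7, the Kupffer cell and macrophage markers summed to 10900, the endothelial to 2190 and the hepatocyte to 101000. There the cholangiocyte markers summed to 445 and the erythroid to 1540, and none of these sums was the lowest among maternal obese arrays. The part of detection and of other cell types in the UGT1A readings was not tested.

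The comparison of the sexes, with maternal condition as a covariate, was tested for UGT1A6. For UGT1A7 and UGT1A10 it is described only, because the low readings of the males MO4 and MO5 led to the choice of the family. UGT1A6 stood at -0.20 (SE 0.23) in females minus males for ILMN_1706390 and at -0.11 (SE 0.31) for ILMN_1758907, with limma adjusted p = 0.766 and 0.920. The UGT1A6 values were within their error, which leaves room for a sex difference of the size seen between conditions. UGT1A7 stood at 0.08 (SE 0.38) and UGT1A10 at 0.01 (SE 0.41), each a mean of opposite signs. On UGT1A10 the control females had a mean of 7.61 and the control males of 8.52, while the maternal obese females had 7.27 and the males 6.12. On UGT1A7 these means were 6.99 and 7.76 in controls and 6.72 and 5.58 in maternal obese livers. Over all 11475 probes, 5 passed (0.0436%; 11.1% at an unadjusted p under 0.05): RPS4Y1, RPS4Y2 and DUSP9 lower and XIST and 1 unnamed probe higher in females, named here after their values were seen.

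The detected probes varied widely among controls alone. The SD over the 6 control livers was 0.76 for UGT1A10 and 0.67 for UGT1A7, larger than for 95.5% and 93.6% of the 11475 probes, whose median SD was 0.28. It was 0.57 for UGT1A6 ILMN_1758907 and 0.42 for ILMN_1706390, larger than for 89.9% and 78.5%. CON1 and CON2 held the lowest UGT1A7 and UGT1A10 levels among controls and CON6 the highest. In the order of the arrays on UGT1A10, CON6 led with a gap of 1.15 to CON3, CON3 to MO1 lay within 0.30 of each other, and MO4 was last with a gap of 0.79 to MO5.

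UGT1A7 and UGT1A10 followed the same order closely. Over the 11 arrays their levels correlated at r = 0.973 (Spearman's rank correlation 0.964), and at 0.973 in the 6 controls, which are descriptions, since both were chosen for low readings on the same arrays. The difference between the levels of this pair varied by an SD of 0.24 over the arrays, against SDs of 0.88 and 0.98 for UGT1A7 and UGT1A10 themselves. Whether these probes bind a shared transcript in baboon was not determined. The UGT1A6 pair correlated at r = 0.950 (permutation p = 2e-05) and a Spearman's rank correlation of 0.900 (permutation p = 0.00038), the only pair of probes that was tested. Both are assigned to the same RefSeq transcript, so this test concerns the agreement of its probes and no relation between genes. Without CON4 and CON6 the r was 0.937 (n = 9, exact permutation p = 0.000923) and within slide 2 it was 0.942 (n = 7, exact permutation p = 0.00298). In the controls alone it was 0.946 (n = 6, exact permutation p = 0.0306).

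The correlations of UGT1A6 with UGT1A7 and UGT1A10 over the 11 arrays were lower. ILMN_1706390 correlated with UGT1A7 at r = 0.701 (Spearman's 0.655) and with UGT1A10 at r = 0.709 (Spearman's 0.645). ILMN_1758907 correlated with them at r = 0.666 (Spearman's 0.673) and 0.672 (Spearman's 0.664). These values are descriptions over 11 arrays, as the UGT1A7 and UGT1A10 levels entered the choice of the family. Without the pair of arrays farthest from the median of UGT1A6 (CON4 and CON6, or CON4 and MO4) r was 0.435 to 0.496 (n = 9), over a range that this choice narrows. Within slide 2 r was 0.582 to 0.672 (n = 7). In the 6 controls it was 0.937 with UGT1A7 and 0.852 with UGT1A10 for ILMN_1706390, and 0.782 and 0.642 for ILMN_1758907. MO3 and MO5 show the divergence from UGT1A10, with UGT1A6 levels among the controls (7.11 and 6.77 for ILMN_1706390) and UGT1A10 levels below them (7.02 and 6.52). The lowest control on UGT1A10, CON1, read 7.16, close to MO3. On UGT1A7 MO5 read below every control (5.57), while MO3 (6.55) read above CON1 (6.50).

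**Figure D4:**
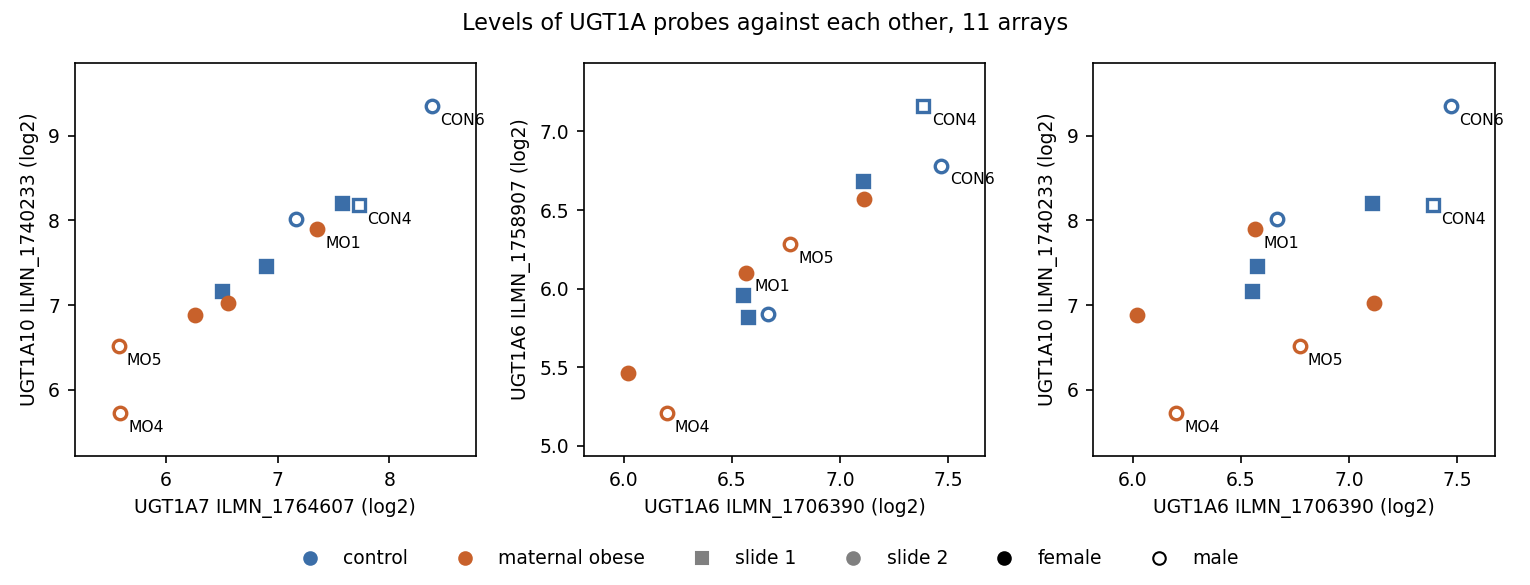
Normalized log2 levels of UGT1A10 against UGT1A7 (left), of one UGT1A6 probe against the other (middle) and of UGT1A10 against UGT1A6 (right), 1 point per array, coloured by condition. The left and middle panels run close to a line (r = 0.973 and 0.950), and the right panel is wider (r = 0.709).

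Among 9341 other probes with a gene symbol, those whose levels followed a UGT1A probe most closely over the 11 arrays are given as a description, since they are the highest of many. For UGT1A7 they were VDAC1, the voltage-dependent channel of the outer mitochondrial membrane (r = 0.924), FAHD1, a mitochondrial acylpyruvase (0.908), and RAC1, a small GTPase (0.903). The FAHD1 probe was detected on 9 of the 11 arrays and the RAC1 probe on 7, so part of these levels was not above background. For UGT1A10 they were VDAC1 again (0.923), NEMF, a factor of ribosome quality control (0.918), and ITM2B, an integral membrane protein (0.915). Within slide 2 (n = 7) VDAC1 stood at 0.993 and 0.983 with UGT1A7 and UGT1A10, and in the 6 controls at 0.868 and 0.894. For UGT1A6 they were GOLPH3, a Golgi protein (0.956), CHMP5, a subunit of the ESCRT-III membrane-scission complex (0.955), and UBA3, a subunit of the NEDD8-activating enzyme (0.939), with ILMN_1706390. With ILMN_1758907 they were the splicing factor SF3B1 (0.948, detected on 10 arrays), the mitochondrial peroxiredoxin PRDX3 (0.948) and UBA3 (0.945).

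Of 63 listed genes of the pathway around the UGT1A enzymes, 58 had a probe on the array and 34 were measured, that is detected on 5 or more arrays. Of the 34, 0 passed in either direction between maternal obese and control livers. At an unadjusted p under 0.05 there was 1 lower and 1 higher gene, which is 2.94% each, beside 4.23% lower and 8.53% higher over all 11475 probes. The median difference of the 34 genes was -0.03, with 18 of them below 0, against a median of 0.04 over all probes. These shares do not exceed those of all probes.

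Of the genes that supply UDP-glucuronic acid, move it or cleave glucuronides, 6 of 8 were measured. UGDH, which makes the sugar donor, had a probe on the array but was not detected on 5 or more arrays. SLC35D2, a nucleotide sugar transporter, was at 8.37 ± 0.28 (SD, n = 6) among controls and at 8.74 ± 0.21 (SD, n = 5) among maternal obese livers, a difference of 0.37 (SE 0.15, limma adjusted p = 0.371) that was 0.08 within slide 2. UGP2, which makes UDP-glucose, was at -0.27 (SE 0.17) and GUSB, the lysosomal beta-glucuronidase, at 0.12 (SE 0.16), which turned to -0.14 within slide 2. PGM1, also on the list, was at 0.18 (SE 0.40) over all arrays and at 1.09 within slide 2. The median of the list was 0.05 over all arrays.

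Of the genes of bilirubin formation, uptake and efflux, 7 of 13 were measured, with 4 of them below 0 and a median of -0.04. The largest difference was that of SLCO1B1, a hepatocyte uptake carrier of bilirubin and bile acids, at -0.36 (SE 0.28, limma adjusted p = 0.554), and it turned to 0.27 within slide 2. BLVRA, the biliverdin reductase that forms bilirubin, was at -0.16 (SE 0.23) and the carrier SLCO2B1 at 0.10 (SE 0.16). HMOX1, the inducible heme oxygenase, was at -0.11 (SE 0.25), and ABCC2, which exports bilirubin glucuronides into bile, at 0.09 (SE 0.18). Within slide 2 SLCO2B1 stood at 0.42 and HMOX1 at -0.56, BLVRA was at -0.02, and ABCC2 turned to -0.12. GSTA1, also on the list, went from -0.04 (SE 0.21) over all arrays to -0.57 within slide 2. GSTA2 turned from 0.14 (SE 0.22) to -0.40.

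Other UGT families were represented by 5 of 12 genes, with a median of -0.18. UGT2B11 was at 0.27 (SE 0.21), UGT2B4, which conjugates bile acids and steroids, at -0.28 (SE 0.24), and UGT3A1, which uses N-acetylglucosamine as the sugar, at -0.18 (SE 0.22). The steroid-conjugating UGT2B15 and UGT2B17 lay at -0.30 (SE 0.44) and 0.01 (SE 0.22). Within slide 2 UGT2B4 turned to 0.14 and UGT3A1 stood at -0.49. The smallest limma adjusted p among these 5 genes was 0.550.

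Of 16 transcription factors and sensors known to act on UGT1A genes, 12 had a probe assigned to them alone and 9 were measured, with a median of 0.07. The nuclear receptors NR1I2, NR1I3 and HNF4A were not among the 9. A factor that was not measured may still be present. NFE2L2, the regulator of the antioxidant response, was at 9.87 ± 0.18 (SD, n = 6) among controls and at 9.59 ± 0.20 (SD, n = 5) among maternal obese livers, a difference of -0.28 (SE 0.13, limma adjusted p = 0.393). KEAP1, its inhibitor, was at -0.34 (SE 0.17, limma adjusted p = 0.401) and ONECUT1, a liver transcription factor, at 0.59 (SE 0.36, limma adjusted p = 0.473). AHR, the receptor for aryl hydrocarbons, was at 0.17 (SE 0.13). Within slide 2 NFE2L2 stood at -0.15, KEAP1 at -0.61, ONECUT1 at 0.81 and AHR at 0.31. RXRA, also on the list, was at -0.04 (SE 0.28) over all arrays and turned to 0.58 within slide 2.

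Of 14 other target genes of these regulators, 7 were measured, with a median of -0.16 and 5 below 0. NQO1, a quinone reductase induced through NFE2L2 and AHR, was the lower gene with an unadjusted p under 0.05. It was at 8.98 ± 0.26 (SD, n = 6) among controls and at 8.54 ± 0.29 (SD, n = 5) among maternal obese livers, a difference of -0.44 (SE 0.16, limma adjusted p = 0.362) that was -0.43 within slide 2. CYP3A5, a drug-oxidising cytochrome P450, was at -0.33 (SE 0.17) and detected in 5 control and 2 maternal obese livers, and POR, the electron donor of these enzymes, was at 0.18 (SE 0.15). Within slide 2 CYP3A5 stood at -0.18. CYP3A7 turned from -0.16 (SE 0.46) over all arrays to 0.42 within slide 2, and CYP2C8 from -0.17 (SE 0.23) to 0.29. CYP1A1 and CYP1A2, classic targets of AHR, were not measured.

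**Figure D5:**
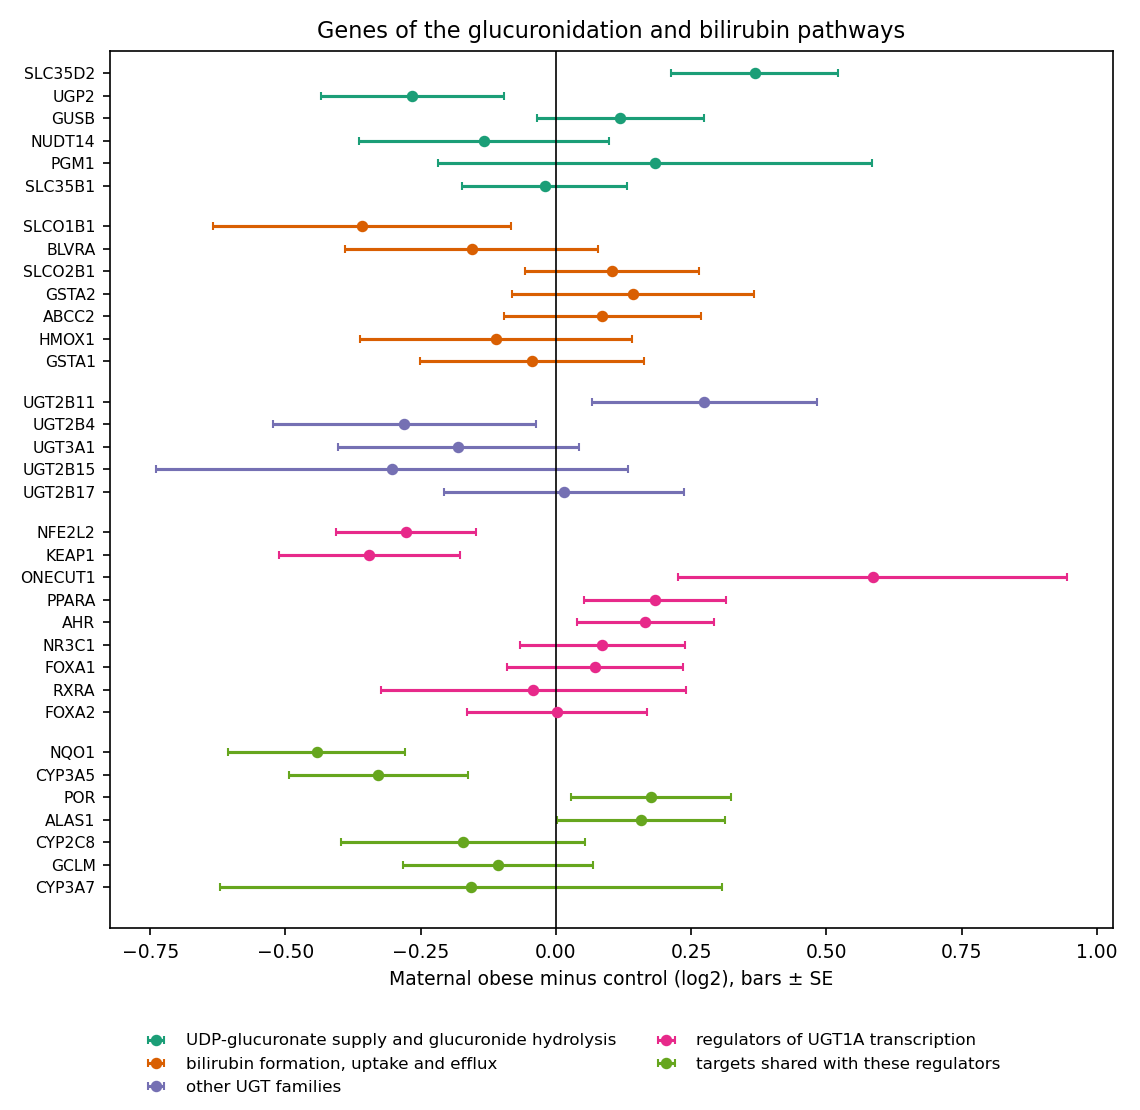
Maternal obese minus control difference (x axis, log2; bars are ± SE from limma) of the 34 measured genes of 5 pathway lists, in the order of their p within a list. The differences lie on both sides of 0, from -0.44 for NQO1 to 0.59 for ONECUT1.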

How the data were processed

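RNA from 11 fetal livers was amplified to biotin-labelled cRNA, per the labels' protocols. The authors deposited a probe intensity and a detection p-value for each of 48803 probes and array, and log2 values that equal the log2 of those intensities within 5.00e-09 and are not normalized. GenomeStudio and Partek appear in the submitters' processing notes, with no version or role. Probe symbols came from the platform annotation, which gives 1 symbol to 28098 probes, several to 13 and does not list 20692. No column of values lacked a sample.

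Intensities were normalized with neqc of limma 3.58.1 in R 4.3.3 (normexp background correction from the detection p-values, offset 16, quantile normalization, log2). The 11475 probes that at least 5 arrays detected (p under 0.05) were tested with lmFit and eBayes and Benjamini-Hochberg adjustment at 0.05, after a test on simulated data. The correlation of the UGT1A6 probes was tested with two-sided permutation tests (100000 resamples, or all orders for n of 9 or less; scipy 1.17.1). The highest of a gene's tested probes stood for it in the pathway lists, and the 3 genes with the smallest p per list were to be named, with further members added by role after their values were seen. For each UGT1A probe the 3 most correlated genes were named. Marker lists were summed as linear values. Members and lists were chosen with earlier results of these data known. The labels do not say whether any fetuses shared a mother, and the p-values measure the spread between these 11 samples. The number of arrays limits the precision.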

Additional observations from a re-analysis of the deposited data

Results flagged for a closer look

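Among 22 sets of levels (11 UGT1A probes in the controls and in the maternal obese livers), 2 held an array whose gap to its neighbour was large for the range of its group, and chance gives about 1 in 20 such cases. UGT1A3 ILMN_2206420 read 4.67 in CON2, where the next lowest control read 4.77. UGT1A6 ILMN_1752813 read 4.95 in MO3, where the next highest maternal obese liver read 4.88. Neither probe was detected on any of the 11 arrays.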

How the results depend on the processing

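No paired analysis was possible because the replicate numbers only name arrays in accession order. The maternal obese minus control difference of the 4 detected UGT1A probes stayed below 0 under each alternative run (23 for each probe, 21 for UGT1A6 ILMN_1758907, which was not detected on all 11 arrays and not the brightest UGT1A6 probe). With 1 array left out it ran from -1.53 to -0.98 for UGT1A10, -1.38 to -0.90 for UGT1A7, -0.57 to -0.30 for UGT1A6 ILMN_1706390 and -0.61 to -0.27 for ILMN_1758907. With slide and sex as covariates UGT1A10 went to -2.16 and UGT1A7 to -1.76, and with no background correction UGT1A7 went to -0.74 and the UGT1A6 probes to -0.28 and -0.27. Array weights gave -0.20 and -0.17 for the UGT1A6 probes (ILMN_1706390 and ILMN_1758907). Scaling to equal medians moved the median of all probes from 0.04 to -0.13. At a detection p under 0.01, UGT1A6 ILMN_1758907 was detected on 4 arrays in place of 10 and UGT1A9 on 0 in place of 1.

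The sign of the female minus male difference was not stable. UGT1A10 turned to -0.0841 with quantile normalization alone, -0.0256 with equal medians, -0.26 with no normalization and -0.0652 with an offset of 50, and ran from -0.35 to 0.33 with 1 array left out. On slide 2 only it went to 1.14 and with slide as a covariate to 0.48, and UGT1A7 to 1.14 and 0.42. UGT1A7 turned to -0.0157, -0.20 and -0.0037 (quantile alone, no normalization, offset 50) and ran from -0.13 to 0.34. UGT1A6 turned to 0.0815 (ILMN_1706390) and 0.30 (ILMN_1758907) on slide 2 only, and the second also to 0.0284 with array weights, with ranges of -0.36 to -0.10 and -0.38 to 0.0668 without 1 array. Neither UGT1A6 probe passed under any of them (limma adjusted p = 0.496 to 1.0).

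Of all probes, 0 passed between conditions as reported (1464 at an unadjusted p under 0.05), 1 with no normalization, 1 with slide as a covariate, 9 with array weights and 0 to 2 without 1 array, 2 being without CON5; the unadjusted counts ran from 563 (slide as a random block) to 2352 (without CON6), and 3789 with no filter. Between sexes 5 passed (1273 unadjusted), and 3 with quantile normalization alone, no normalization, slide as a random block or slide 2 only, 2 with equal medians, 1 with no filter, 0 with detection on all 11 arrays (limma, 913 unadjusted) and 3 to 5 without 1 array; the unadjusted counts ran from 532 (slide 2 only) to 2065 (without CON4), and 3767 with no filter. For the interaction 0 passed (844 unadjusted), 1 with no normalization (2043 unadjusted) and 0 to 18 without 1 array, 18 being without CON4; the unadjusted counts ran from 539 (without MO4) to 2043, and 2670 with no filter. The cause was not tested. The interaction could not be fitted on slide 2, which held no control female.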
